A study of Mus musculus with 9 samples.

Results

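Replication licensing is the step that prepares chromosomes for copying. Its genes were read here, together with Mcm10 and Pcna, which act after it. The cells were mouse CD4+ T cells, activated for 3 h at 39 °C or 37 °C, or naive. The set was chosen by name and holds 10 genes, Mcm2, Mcm3, Mcm4, Mcm5, Mcm6, Mcm7, Mcm10, Cdc6, Cdt1 and Pcna, of 55573 gene identifiers in the deposited tables. All 10 were found, and 9 of them were among the 13328 genes with enough counts to be tested; Mcm10 was not. After 3 h of activation 4 of the 9 had more mRNA, as a share of the library, than in naive cells at either temperature. Pcna and Mcm5 rose about 1.6-fold, Mcm2 1.29-fold at 39 °C and 1.38-fold at 37 °C, and Mcm6 1.17-fold at 39 °C and 1.24-fold at 37 °C. All levels and folds here are such shares, and mRNA per cell was not measured. Mcm3, Mcm4, Mcm7 and Cdt1 lay within a fold of 0.945 to 1.08 of naive cells, and Cdc6 and Mcm10 were near the limit of detection. No difference between 39 °C and 37 °C passed the test in any of the 9.

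In G1 the origin recognition complex, CDC6 and CDT1 load the ring-shaped MCM2-7 helicase, made of 6 subunits, onto DNA in an inactive form. At the start of S phase the loaded helicase is switched on with the help of MCM10, and PCNA, a sliding clamp, holds the polymerases on the template. Resting T cells keep many replication genes low, and in cycling cells E2F transcription factors, held back by proteins of the RB family until late G1, drive a large share of them.

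The libraries were made from splenic CD4+ T cells of B6 mice, with 3 libraries in each of 3 groups. The first group was activated for 3 h at 39 °C, a febrile temperature, and the second for 3 h at 37 °C, both on wells that carried anti-CD3, which triggers the T cell receptor complex, and anti-CD28, which gives costimulation. The third group, naive, was not activated. No genotype other than B6, and no age or sex, is given by the labels. The labels name spleen cells as what was plated. Whether CD4+ cells were purified before or after that, and whether naive cells spent 3 h in medium, is not stated, so culture, activation and loss of other cells cannot be told apart in a comparison with naive cells. Separate mice or cultures within a group are not stated either, and the p-values thus measure no more than the spread of these 9 samples, which may be technical.

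Library totals ranged from 12647692 to 17605549 counts. All 10 CD4 T cell markers were detected, at a summed 6085 to 6568 CPM (counts relative to the library total, with TMM factors) at 39 °C, 5805 to 6136 CPM at 37 °C and 5490 to 7287 CPM in naive libraries. Single CD4 markers moved, with 1 called higher and 4 lower at 39 °C against naive, and 2 higher and 5 lower at 37 °C. Of all tested genes 58.9% were called at 39 °C against naive, 29.2% higher and 29.8% lower. At 37 °C against naive 62.7% were called, 30.9% higher and 31.8% lower. A call of a single marker was thus common, and the CD4 counts are not read as particular to these markers. Markers of several other spleen cell types were lower in the activated libraries. The 8 B cell markers summed to 244 to 256 CPM at 39 °C and 229 to 238 CPM at 37 °C, against 745 to 893 CPM in naive libraries, and 8 of 8 were called lower in both activated groups. The 10 erythroid markers summed to 6.10 to 7.88 CPM at 39 °C and 6.06 to 6.43 CPM at 37 °C, against 143 to 234 CPM in naive libraries, and all 6 that could be tested were called lower. Slc4a1, which encodes an anion exchanger of the erythroid membrane, had no count at 39 °C. The 2 CD8 markers summed to 12.6 to 14.6 CPM at 39 °C, 13.5 to 15.1 CPM at 37 °C and 25.8 to 36.1 CPM in naive libraries, and 2 of 2 were called lower in both activated groups. The 6 myeloid markers summed to 2.70 to 3.35 CPM at 39 °C, where Cd14 had no count, and to 1.72 to 2.76 CPM at 37 °C, against 11.0 to 13.1 CPM in naive libraries. All 3 of them that could be tested were called lower in both activated groups. The 4 markers of stroma and endothelium summed to 157 to 162 CPM at 39 °C and 131 to 136 CPM at 37 °C, where Cdh5 had no count, against 296 to 310 CPM in naive libraries, and the 1 that could be tested was called lower. The other genes of this list were below the count filter, so the sum rested almost wholly on 1 gene. Whether its reads came from stroma or endothelium was not tested. Summed levels of 2 lists were higher in activated libraries. The 4 germinal centre B cell markers summed to 25.6 to 28.6 CPM at 39 °C and 23.5 to 26.5 CPM at 37 °C, against 10.8 to 13.2 CPM in naive libraries; of 2 tested, 1 was called higher and 0 lower, and Gcsam had no count at either temperature. The 4 dendritic cell markers summed to 6.06 to 7.72 CPM at 39 °C and 5.12 to 6.34 CPM at 37 °C, against 3.05 to 3.58 CPM in naive libraries, but of 3 tested 1 was called higher and 2 lower in both comparisons, and Siglech had no count in activated libraries. Plasma cell, NK cell and neutrophil markers summed to at most 4.26 CPM per list in any library. In each of these lists 1 marker could be tested, and it was called lower in both activated groups. The platelet and megakaryocyte markers summed to at most 7.72 CPM, and the 1 that could be tested was not called. The levels of many of these markers thus differed between activated and naive libraries, and their part in the results against naive cells was not tested. In bulk RNA, fewer cells of a type and less RNA per cell cannot be told apart.

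The promoter windows of the genes that rose and of a pair that did not are printed here because the genes of the set moved unequally. Each window runs from 250 bases before to 50 bases after a RefSeq transcription start in GRCm38.p6, and the table matched 9 of the 10 genes, all but Mcm4. Capitals mark any of 4 words for an E2F site, TTTCCCGC, TTTCGCGC, TTTGCCGC and TTTGGCGC, read on both strands. Sequences are given 5′ to 3′ on the strand of the gene.
Mcm5 promoter, chr8:75109259-75109558, plus strand: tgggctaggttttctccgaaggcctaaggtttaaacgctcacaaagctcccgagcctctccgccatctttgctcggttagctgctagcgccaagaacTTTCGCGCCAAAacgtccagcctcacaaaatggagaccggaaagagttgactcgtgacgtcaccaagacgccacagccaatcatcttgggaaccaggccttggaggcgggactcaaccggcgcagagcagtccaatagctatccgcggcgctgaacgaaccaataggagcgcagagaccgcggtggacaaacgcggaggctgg
Mcm6 promoter, chr1:128359656-128359955, minus strand: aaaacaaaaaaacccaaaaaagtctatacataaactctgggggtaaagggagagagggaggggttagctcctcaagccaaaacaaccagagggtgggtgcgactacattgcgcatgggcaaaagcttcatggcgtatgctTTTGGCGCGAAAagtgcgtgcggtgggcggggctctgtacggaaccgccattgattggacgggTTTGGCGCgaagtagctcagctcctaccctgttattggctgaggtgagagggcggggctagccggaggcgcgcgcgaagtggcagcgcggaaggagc
Mcm2 promoter, chr6:88898731-88899030, minus strand: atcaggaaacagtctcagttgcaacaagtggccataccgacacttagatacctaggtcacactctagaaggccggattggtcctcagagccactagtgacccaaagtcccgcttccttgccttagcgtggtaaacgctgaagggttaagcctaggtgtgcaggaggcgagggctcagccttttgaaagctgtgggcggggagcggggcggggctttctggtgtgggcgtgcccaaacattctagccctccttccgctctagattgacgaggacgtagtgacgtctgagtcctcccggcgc
Pcna promoter, chr2:132253131-132253430, minus strand: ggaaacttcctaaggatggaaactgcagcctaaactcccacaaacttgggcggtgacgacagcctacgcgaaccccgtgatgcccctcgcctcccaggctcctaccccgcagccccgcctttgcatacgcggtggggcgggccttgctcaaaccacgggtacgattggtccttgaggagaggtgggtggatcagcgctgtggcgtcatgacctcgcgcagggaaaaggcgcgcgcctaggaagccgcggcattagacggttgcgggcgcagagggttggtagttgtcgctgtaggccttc
Mcm7 promoter, chr5:138171834-138172133, minus strand: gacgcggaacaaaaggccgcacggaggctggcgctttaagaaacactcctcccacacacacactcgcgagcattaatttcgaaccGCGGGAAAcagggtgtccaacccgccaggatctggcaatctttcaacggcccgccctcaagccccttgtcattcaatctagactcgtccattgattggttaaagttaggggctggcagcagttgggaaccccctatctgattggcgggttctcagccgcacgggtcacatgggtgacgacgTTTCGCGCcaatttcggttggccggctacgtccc
Cdt1 promoter, chr8:122567765-122568064, plus strand: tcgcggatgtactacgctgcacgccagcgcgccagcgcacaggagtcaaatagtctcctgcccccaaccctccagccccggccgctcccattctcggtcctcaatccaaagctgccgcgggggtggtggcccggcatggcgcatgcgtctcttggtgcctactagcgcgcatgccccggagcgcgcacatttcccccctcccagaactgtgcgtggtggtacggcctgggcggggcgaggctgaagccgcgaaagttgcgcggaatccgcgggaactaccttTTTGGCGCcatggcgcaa

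An E2F word stood in the window of 6 of the 9 genes with one (Mcm3, Mcm5, Mcm6, Mcm7, Cdc6 and Cdt1) and in 2.26% of 32817 RefSeq windows, or 4.06% of 11934 windows of tested genes. In Mcm5 the words TTTCGCGC and, on the other strand, TTTGGCGC overlapped, with first bases at -153 and -149 from the start, and in Mcm6 a like pair overlapped at -110 and -106 with a further word at -47. The Mcm7 window held words at -165 and 16, the second sharing 1 base with a CCAAT word at 23, and a second RefSeq window of Mcm7, not printed, held none. Of the genes that rose, Mcm5 and Mcm6 held the word and Mcm2 and Pcna did not; of those tested that did not rise, Mcm3, Mcm7, Cdc6 and Cdt1 held it. CCAAT, a word bound by the factor NF-Y, stood in 7 of 9 genes, against 37.4% of all windows and 37.6% of windows of tested genes, on either strand. The ATF/CREB word TGACGTCA stood in Mcm5 alone, against 1.79% of all windows and 3.17% of windows of tested genes. The E-box CACGTG stood in none, against 7.15% of all windows and 10% of windows of tested genes. Licensing genes were counted by gene, with 2 windows for Mcm7, and the background by window. A match is a string of letters and not a bound site, and a missing match says only that these letters are not in this window.

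**Figure D1:**
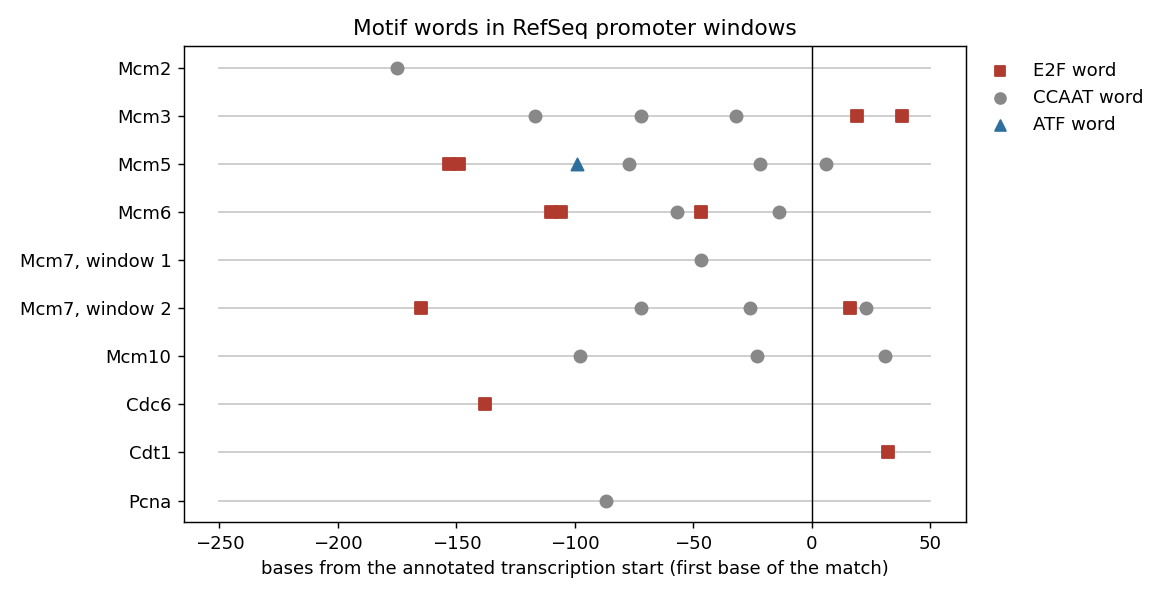
Positions of motif words in the RefSeq promoter windows of 9 licensing genes, in bases from the annotated start (x axis), with 1 line per window and 2 windows for Mcm7. Squares are E2F words, circles CCAAT words and the triangle an ATF word; Mcm2, Mcm10 and Pcna hold no E2F word.

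The loading factors came first in the order of the pathway. Cdc6 (ENSMUSG00000017499, GRCm38 chr11:98907801-98923940, plus strand) encodes the ATPase that joins the origin recognition complex to bring in the helicase. It had 18, 10 and 8 counts in the 39 °C libraries, 12, 14 and 9 counts in the 37 °C libraries and 14, 20 and 23 counts in the naive libraries. The groups overlapped, and at these counts, which placed Cdc6 above 8.74% of tested genes by mean CPM, only a large difference could have been seen. The log2 fold change was -0.55 ± 0.31 at 39 °C against naive (± SE here and below, n = 3 libraries a group; edgeR adjusted p = 0.151) and -0.53 ± 0.31 at 37 °C against naive (adjusted p = 0.160). Its interval at 37 °C ran from a fold of 0.431 to 1.11, at a level of 95%.

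Cdt1 (ENSMUSG00000006585, chr8:122568015-122573554, plus strand), which works with CDC6 to load the helicase and is destroyed in S phase, was as abundant as the helicase genes in counts. Its level was 85.5, 87.1 and 83.6 CPM in the 39 °C libraries, 86.5, 84.2 and 87.1 CPM in the 37 °C libraries and 87.9, 74.2 and 90.3 CPM in the naive libraries. The activated libraries lay inside the range of the naive ones. The log2 fold change was 0.02 ± 0.077 at 39 °C against naive (adjusted p = 0.832) and 0.03 ± 0.077 at 37 °C against naive (adjusted p = 0.753), with an upper limit of 1.15-fold at 37 °C. So the 2 loaders were measured at very different depth, with 3667, 3553 and 3938 counts of Cdt1 in the 39 °C, 37 °C and naive groups against 36, 35 and 57 counts of Cdc6.

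Among the helicase subunits Mcm5 rose most. Mcm5 (ENSMUSG00000005410, chr8:75109569-75128439, plus strand), which forms the gate of the ring with Mcm2, had 84.3, 83.0 and 83.0 CPM in the 39 °C libraries and 79.7, 82.7 and 84.5 CPM in the 37 °C libraries, against 48.1, 51.5 and 56.0 CPM in the naive libraries. Every activated library lay above every naive one. The log2 fold change was 0.68 ± 0.069 at 39 °C against naive (edgeR adjusted p = 4.15e-06) and 0.66 ± 0.069 at 37 °C against naive (adjusted p = 5.03e-06).

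Mcm2 (ENSMUSG00000002870, chr6:88883474-88898780, minus strand), the partner of Mcm5 at the gate and a carrier of parental histones, had 98.9, 98.0 and 99.7 CPM in the 39 °C libraries and 107, 102 and 107 CPM in the 37 °C libraries, against 71.8, 74.0 and 83.3 CPM in the naive libraries. Again no activated library reached down to the naive range. The log2 fold change was 0.37 ± 0.068 at 39 °C against naive (adjusted p = 0.000547) and 0.46 ± 0.068 at 37 °C against naive (adjusted p = 9.01e-05). Mcm6 (ENSMUSG00000026355, chr1:128331590-128359664, minus strand), a subunit that binds Mcm2 in the ring and CDT1 during loading, had 102, 109 and 106 CPM in the 39 °C libraries and 118, 110 and 109 CPM in the 37 °C libraries, against 90.7, 85.2 and 95.5 CPM in the naive libraries. The ranges were apart, with the smallest rise of the 4: 0.22 ± 0.067 at 39 °C against naive (adjusted p = 0.0127) and 0.31 ± 0.067 at 37 °C against naive (adjusted p = 0.00151). The call at 39 °C rested on 39 °C library 2, without which the log2 fold change was 0.20 with an adjusted p of 0.0561 by edgeR.

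The other subunits did not pass the test. Mcm3 (ENSMUSG00000041859, chr1:20802968-20820312, minus strand), whose yeast counterpart contacts the complex of ORC and CDC6 during loading, had 64.9, 60.6 and 62.9 CPM in the 39 °C libraries, 63.9, 58.8 and 65.0 CPM in the 37 °C libraries and 55.5, 57.5 and 60.7 CPM in the naive libraries. Its groups overlapped at the edge, with log2 fold changes of 0.12 ± 0.069 at 39 °C against naive (adjusted p = 0.164) and 0.11 ± 0.069 at 37 °C against naive (adjusted p = 0.183).

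Mcm4 (ENSMUSG00000022673, chr16:15623897-15637400, minus strand), a subunit phosphorylated by the kinase CDC7 when origins fire, had 84.6, 89.6 and 90.8 CPM in the 39 °C libraries and 87.9, 84.6 and 90.8 CPM in the 37 °C libraries, against 92.8, 91.3 and 94.6 CPM in the naive libraries. Here the activated libraries were the lower ones and the ranges were apart, but by little: the log2 fold change was -0.07 ± 0.061 at 39 °C against naive (adjusted p = 0.321) and -0.08 ± 0.061 at 37 °C against naive (adjusted p = 0.259). Mcm7 (ENSMUSG00000029730, chr5:138164583-138172422, minus strand), which is unloaded by ubiquitination at the end of replication, had 94.0, 96.0 and 88.8 CPM in the 39 °C libraries, 97.2, 89.0 and 92.8 CPM in the 37 °C libraries and 91.8, 92.2 and 95.5 CPM in the naive libraries. These groups lay on top of each other, and the interval at 37 °C against naive ran from a fold of 0.907 to 1.10.

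Mcm10 (ENSMUSG00000026669, chr2:4989714-5012791, minus strand), which helps to start the loaded helicase, had 7, 2 and 3 counts in the 39 °C libraries, 8, 6 and 5 counts in the 37 °C libraries and 7, 8 and 12 counts in the naive libraries. The sums were 12 counts at 39 °C (exact Poisson interval 6.20 to 21.0), 19 counts at 37 °C (11.4 to 29.7) and 27 counts in naive cells (17.8 to 39.3), and these intervals cover counting error only. All 3 intervals overlapped and the gene was below the count filter. When every gene with a count was fitted, edgeR gave a log2 fold change of -1.04 ± 0.57 at 39 °C against naive (adjusted p = 0.188) and -0.33 ± 0.53 at 37 °C against naive (adjusted p = 0.680), and -0.71 ± 0.60 at 39 °C against 37 °C (adjusted p = 0.906), so no change of Mcm10 was detectable at this depth.

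Pcna (ENSMUSG00000027342, chr2:132249162-132253314, minus strand), the sliding clamp of the replication fork, which also serves DNA repair, was the most abundant of the set and rose. It had 288, 276 and 257 CPM in the 39 °C libraries and 271, 254 and 288 CPM in the 37 °C libraries, against 192, 154 and 160 CPM in the naive libraries. Each activated library was above the highest naive library. The log2 fold change was 0.70 ± 0.091 at 39 °C against naive (adjusted p = 3.71e-05) and 0.68 ± 0.091 at 37 °C against naive (adjusted p = 4.05e-05).

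**Figure D2:**
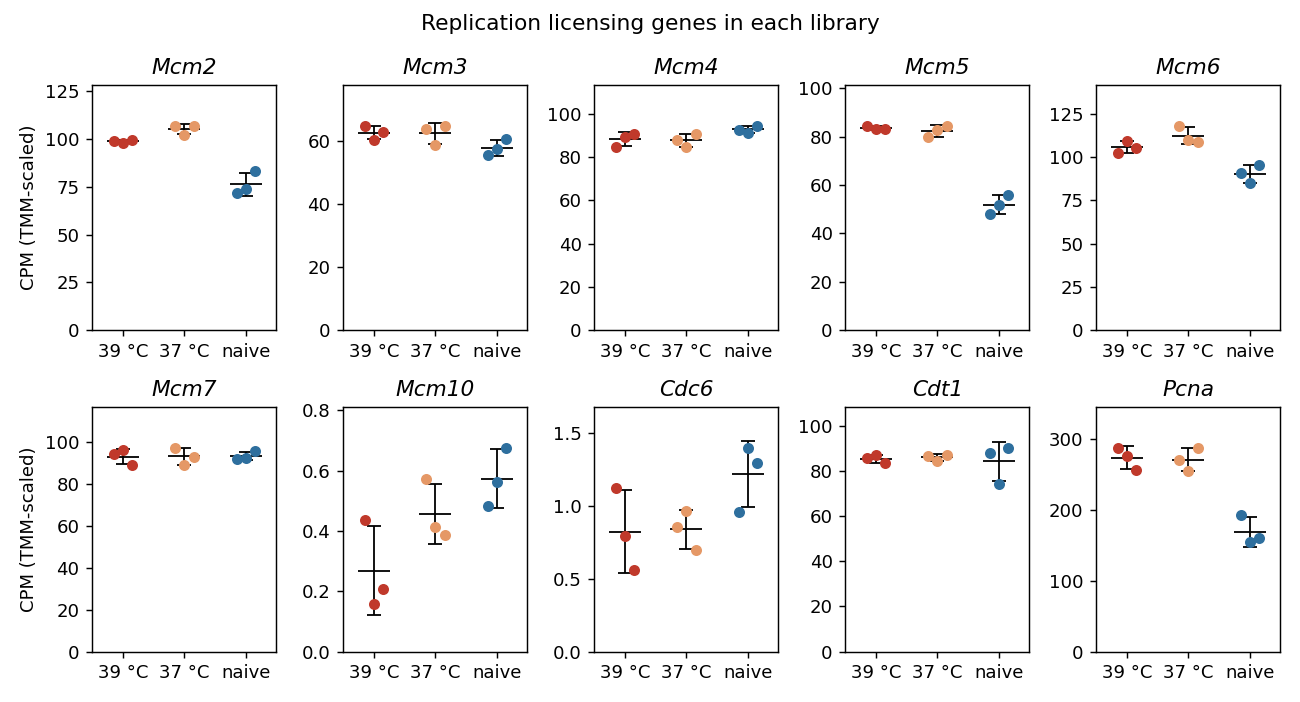
TMM-scaled CPM (y axis, from 0, a scale of its own in each panel) of each licensing gene in the 39 °C, 37 °C and naive libraries. Points are libraries, horizontal lines group means and bars the SD of 3 libraries; Mcm2, Mcm5, Mcm6 and Pcna stand above naive in every activated library, while Mcm10 and Cdc6 reach at most 1.40 CPM.

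Counted together, 4 of the 9 tested genes were higher and 0 lower at 39 °C than in naive cells, where 58.9% of all tested genes were called, 29.2% higher and 29.8% lower. At 37 °C against naive cells the counts were again 4 higher and 0 lower, where 62.7% of all tested genes were called, 30.9% higher and 31.8% lower. With the threshold on the unadjusted p, as with DESeq2, the counts were also 4 higher and 0 lower in both comparisons. Against this background a call in either direction was common, and 4 of 9 is not a share that sets the licensing genes apart. The median log2 fold change of the 9 was 0.12 at 39 °C and 0.11 at 37 °C, beside medians of -0.0027 and -0.0025 over all tested genes. Groups did not overlap for 5 of the 9 at 39 °C, where 61.3% of all tested genes did not overlap, and for 5 of the 9 at 37 °C, where 65.4% did not. The fifth beside the 4 that rose was Mcm4. Both comparisons use the same naive libraries and are not independent of each other.

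The comparison of 39 °C with 37 °C asks whether a febrile temperature during activation altered these genes. By edgeR 0 of the 9 were called, where 0.758% of all tested genes were called, 0.135% higher and 0.623% lower. The unadjusted p was under 0.05 for 0 of the 9, and DESeq2 called 0. The log2 fold changes ran from -0.09 (Mcm2) to 0.02 (Mcm5), with a median of -0.0012 beside 0.0041 over all tested genes. Mcm2, at 98.0 to 99.7 CPM in the 39 °C libraries and 102 to 107 CPM in the 37 °C libraries, was the gene whose groups did not overlap, as was true of 20.9% of all tested genes. Its log2 fold change was -0.09 ± 0.068 (edgeR adjusted p = 0.847). Mcm6 was -0.09 ± 0.067 (adjusted p = 0.847), with groups that overlapped.

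A missed threshold does not show equal levels, so the intervals matter. For the 8 abundant genes the intervals of the fold at 39 °C over 37 °C lay between 0.846, the lower limit for Mcm2, and 1.16, the upper limit for Pcna. For Pcna the fold was 1.01 (0.880 to 1.16), for Mcm5 1.01 (0.915 to 1.13) and for Cdt1 0.994 (0.885 to 1.12). For Cdc6 the interval of 0.591 to 1.65 was much wider, since it rests on 36 counts at 39 °C and 35 at 37 °C. For the 8 abundant genes a change as large as the rise of Pcna or Mcm5 with activation was therefore outside the intervals of the temperature comparison.

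**Figure D3:**
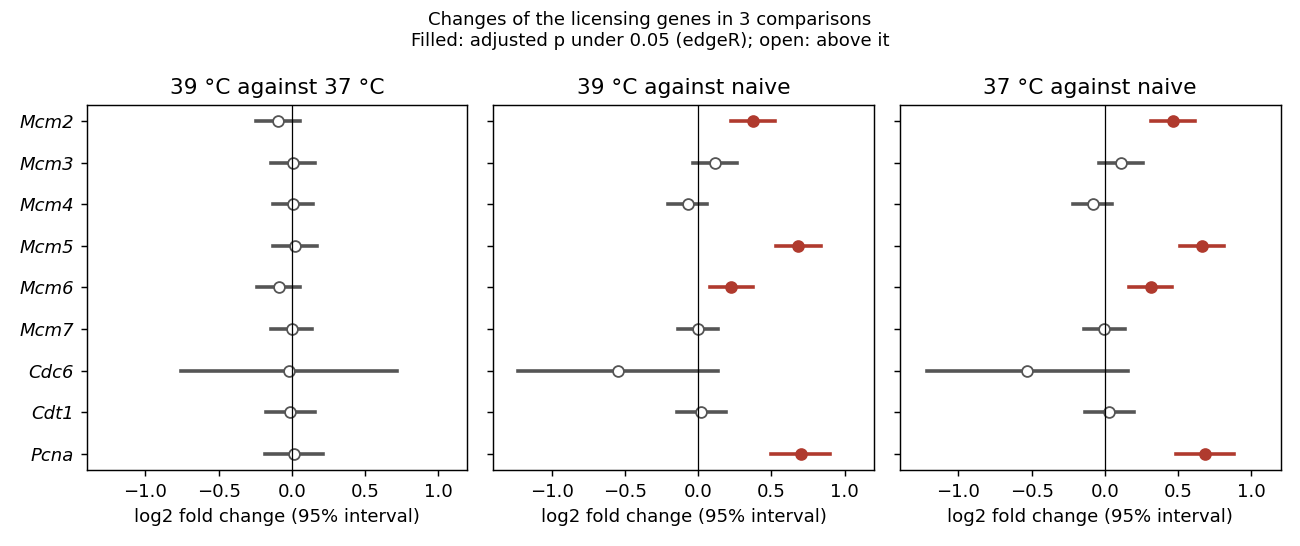
Log2 fold changes with intervals at a level of 95% (x axis) of the 9 tested licensing genes for 39 °C against 37 °C, 39 °C against naive and 37 °C against naive, from edgeR. Filled points passed an adjusted p of 0.05; Mcm2, Mcm5, Mcm6 and Pcna are filled in both comparisons with naive cells, and no point is filled for 39 °C against 37 °C.

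Levels of different genes were compared per kilobase of exon. Divided by the length of all annotated exons, Pcna had 114 ± 6.57 CPM per kilobase at 39 °C and 113 ± 6.94 at 37 °C, against 70.3 ± 8.64 in naive cells (SD, n = 3). Cdt1 came second in each group, at 27.2 ± 0.565, 27.4 ± 0.493 and 26.8 ± 2.77 CPM per kilobase in the 39 °C, 37 °C and naive groups. It overlapped Mcm4 in naive libraries, so these neighbours do not differ beyond their spread there. The MCM2-7 subunits followed, and Cdc6 (0.158 ± 0.0541, 0.161 ± 0.0256 and 0.233 ± 0.0439 CPM per kilobase, in the same order of groups) and Mcm10 were last. Within MCM2-7 the order by all exons was Mcm4, Mcm6, Mcm7, Mcm5, Mcm3 and Mcm2 in both activated groups, with Mcm7 and Mcm5 overlapping at either temperature and Mcm4 and Mcm6 overlapping at 37 °C. In naive libraries it was Mcm4, Mcm7, Mcm6, Mcm3, Mcm5 and Mcm2, with no overlap between neighbours.

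The helicase contains its 6 subunits in equal number, while their mRNA levels were not equal. The highest over the lowest subunit per kilobase of all exons was 1.73 ± 0.0645 at 39 °C and 1.63 ± 0.0257 at 37 °C, against 2.37 ± 0.154 in naive cells (SD, n = 3). The activated libraries lay between 1.60 and 1.77 and the naive ones between 2.20 and 2.51, so the highest and the lowest subunit were closer after activation. Not every pair was closer. Mcm6 and Mcm3 had 19.4 and 15.4 CPM per kilobase in naive cells, against 22.7 and 16.7 at 39 °C and 24.1 and 16.7 at 37 °C. With the length of the principal transcript, an alternative chosen after seeing the data, the ratio was 1.76 ± 0.120 at 39 °C and 1.88 ± 0.112 at 37 °C, against 2.07 ± 0.108 in naive cells, still without overlap but with a smaller gap. The lowest subunit then was Mcm3 in activated libraries and Mcm5 in naive ones in place of Mcm2, so which subunit is scarcest depends on the length used. The summed level of the 6 per kilobase of all exons was 120 ± 0.874 at 39 °C and 122 ± 3.13 at 37 °C, against 106 ± 4.16 in naive cells.

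A ratio of 2 genes within a library needs no length and no scaling. For each count of Mcm4 there were 0.997, 0.926 and 0.914 counts of Mcm5 in the 39 °C libraries and 0.907, 0.978 and 0.930 in the 37 °C libraries, against 0.519, 0.564 and 0.592 in the naive libraries. Mcm2 had 1.09 to 1.17 counts per count of Mcm4 at 39 °C and 1.18 to 1.22 at 37 °C, against 0.773 to 0.881 in naive libraries. Relative to Mcm4, Mcm5 and Mcm2 were higher in every activated library than in any naive one. The same held for Mcm6 and Pcna, and for Mcm3, which was not called. Mcm3 per Mcm4 ran from 0.676 to 0.767 at 39 °C and 0.695 to 0.727 at 37 °C, against 0.599 to 0.642 in naive libraries. Mcm7 per Mcm4 ran from 0.978 to 1.11 at 39 °C and 1.02 to 1.11 at 37 °C, against 0.989 to 1.01 in naive libraries. It thus overlapped naive at 39 °C only, as did Cdt1 per Mcm4. The ratio to Mcm4 was not among the planned results. Mcm4 itself was lower in every activated library than in any naive one, which raises every ratio to it. Mcm5, Mcm2, Mcm6 and Pcna already lay above naive in every activated library. Their separation in these ratios was therefore given in advance and adds no support.

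**Figure D4:**
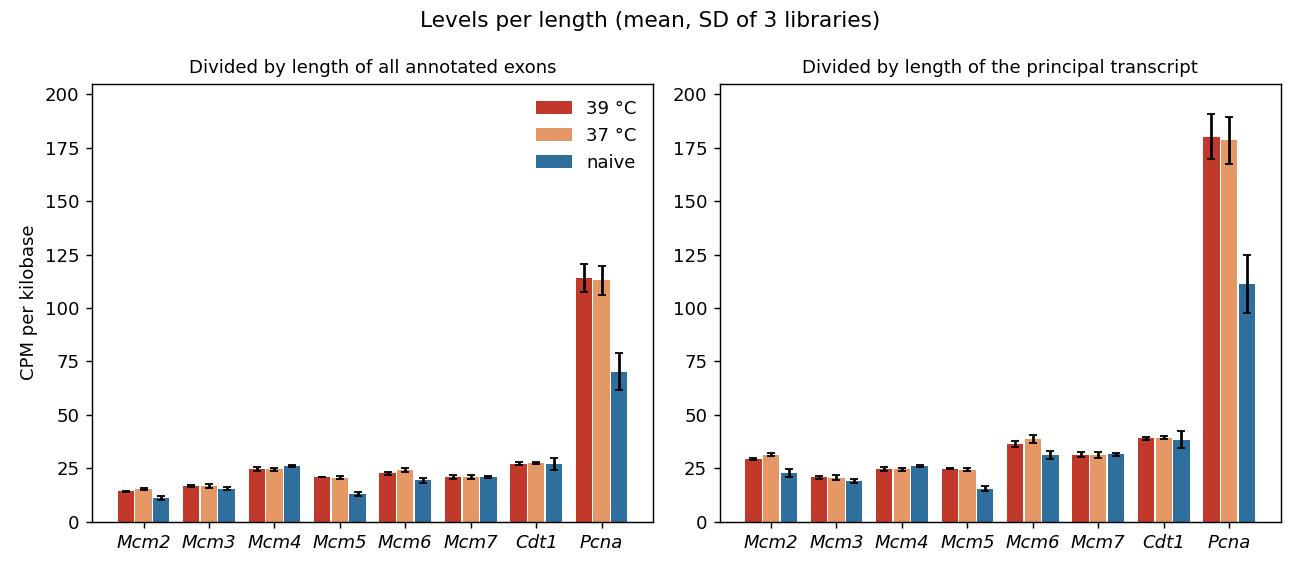
CPM per kilobase (y axis, from 0) of the 8 abundant licensing genes in the 39 °C, 37 °C and naive groups, divided by the length of all annotated exons (left) or of the principal transcript (right). Bars are means and whiskers the SD of 3 libraries; Pcna stands highest with either length, while Mcm2 is the lowest subunit by all exons only.

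The genes around the licensing step are known to act before, with and after it, and 8 lists with 116 genes were read from the same test, 110 of them with enough counts. At 39 °C against 37 °C edgeR called 0 of the 110; 6 had an unadjusted p under 0.05 and DESeq2 called 0. Fitted on the 6 activated libraries alone, edgeR called 1 of them, Pold1, the catalytic subunit of polymerase delta, named here after its values were seen; its log2 fold change in the fit of all libraries was -0.23. Against naive cells 21 were higher and 41 lower at 39 °C, and 23 were higher and 41 lower at 37 °C. These are 19.1% higher and 37.3% lower at 39 °C, where 29.2% of all tested genes were higher and 29.8% lower, and 20.9% higher and 37.3% lower at 37 °C, where 30.9% were higher and 31.8% lower. Single lists are small, and their counts below stand against the same background shares; nothing is read from them as particular to a list. In what follows values are log2 fold changes at 37 °C against naive cells, with those at 39 °C against naive in second place; both use the same naive libraries.

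Of the 7 genes of the origin recognition complex and its partner Lrwd1, the platform onto which CDC6 binds, 2 rose and 1 fell at either temperature. Orc2 rose (0.57 ± 0.066, and 0.55 ± 0.066 at 39 °C), Orc4 rose (0.36 ± 0.09, and 0.25 ± 0.09) and Orc5 fell (-0.37 ± 0.13, and -0.38 ± 0.13). The calls of Orc4 and Orc5 were not stable. Orc5 was no longer called at 37 °C in the 6 libraries alone (adjusted p = 0.0616) or without 37 °C library 1 (0.102), 37 °C library 2 (0.105) or naive library 1 (0.100), and its log2 fold change without naive library 1 was -0.18. At 39 °C its call was lost in the 6 libraries alone (adjusted p = 0.0514) and without 39 °C library 2 (0.0883), 39 °C library 3 (0.0762) or naive library 1 (0.0832). The call of Orc4 at 39 °C was lost without 39 °C library 1 (adjusted p = 0.0657), 39 °C library 3 (0.116), naive library 2 (0.0947) or naive library 3 (0.133), so the list had 1 call at 39 °C without 39 °C library 3. Orc2 shares 1150 exon bases with Nif3l1 on the other strand and Orc4 446 with Acvr2a. Without strand information, reads from shared exons cannot be assigned to one gene.

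Among 16 tested regulators of licensing and relatives of the MCM genes 5 rose and 2 fell at 37 °C, and 4 rose and 2 fell at 39 °C. Grwd1, whose product binds CDT1 and histones and acts in ribosome assembly, rose most (2.21 ± 0.066, and 2.18 ± 0.066 at 39 °C). Kmt5a, the histone H4 lysine methyltransferase, rose (1.04 ± 0.06, and 0.91 ± 0.06), as did Ddb1, the adaptor of the CUL4 ubiquitin ligase that destroys CDT1 (0.69 ± 0.084, and 0.68 ± 0.084). Geminin, the inhibitor of CDT1, is encoded by Gmnn, chosen here after its values were seen. It fell to means of 4.69 CPM in the 39 °C group and 4.38 CPM in the 37 °C group, against 9.13 CPM in the naive group (-1.06 ± 0.16, adjusted p = 9.00e-05, and -0.95 ± 0.15 at 39 °C). Cdt1 itself, as given above, did not pass the test in either direction.

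Of 19 genes of origin firing and helicase activation 2 rose and 9 fell at 37 °C, and 2 rose and 8 fell at 39 °C, with a median of -0.34 at 37 °C. Ccne1, encoding cyclin E1, fell (-1.97 ± 0.17, and -1.73 ± 0.16 at 39 °C), as did Cdc7, the kinase that phosphorylates the loaded helicase (-0.55 ± 0.079, and -0.42 ± 0.078), and Cdk2, the partner of cyclin E (-0.41 ± 0.073, and -0.40 ± 0.073). Without naive library 3 the list had 7 calls at 37 °C. Of 16 genes that load PCNA or work with it 3 rose and 6 fell at 37 °C, with a median of -0.32, and 2 rose and 7 fell at 39 °C. Chaf1b, a subunit of the histone chaperone CAF-1 that PCNA recruits, fell (-1.29 ± 0.11, and -1.26 ± 0.11 at 39 °C), and so did Rfc1, the large subunit of the clamp loader (-0.36 ± 0.079, and -0.32 ± 0.079). Uhrf1, which guides DNA methylation after replication, rose (0.57 ± 0.12, and 0.59 ± 0.12). The clamp gene thus rose while that of the large loader subunit fell.

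Polymerases, primase and the single-strand binding protein RPA were divided, with 5 of 15 higher and 6 lower at 37 °C, and 4 higher and 5 lower at 39 °C. Rpa1 fell (-0.64 ± 0.062, and -0.65 ± 0.062 at 39 °C), and so did Pold4 (-1.03 ± 0.12, and -0.71 ± 0.11) and Pole2 (-1.04 ± 0.14, and -0.85 ± 0.13), small subunits of polymerases delta and epsilon. Of 8 genes of nucleotide supply 1 rose and 6 fell at 37 °C, with a median of -0.57, and 2 rose and 5 fell at 39 °C. Tk1, thymidine kinase, rose (1.25 ± 0.15, and 1.05 ± 0.16 at 39 °C), while Rrm2b, a ribonucleotide reductase subunit made outside S phase, fell (-0.79 ± 0.083, and -0.72 ± 0.083), and so did Dut, the dUTPase (-0.69 ± 0.13, and -0.69 ± 0.13). By DESeq2 the list had 4 calls at 37 °C, and so it had in the 6 libraries of the comparison alone, without 37 °C library 3 and without naive library 1. At 39 °C it had 4 without 39 °C library 1 or naive library 1, and 3 without 39 °C library 2.

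Among 11 tested E2F, RB and DP genes 5 rose and 4 fell at either temperature. Tfdp1, the DP1 partner of the E2F proteins, rose (1.22 ± 0.07, and 1.17 ± 0.07 at 39 °C), while E2f2, known to restrain T cell proliferation in mice, fell (-2.50 ± 0.12, and -2.55 ± 0.12). Rbl2, which encodes the RB relative p130 of resting cells, fell (-0.89 ± 0.082, and -0.86 ± 0.081) and shares 693 exon bases with Aktip on the other strand. Of 18 tested genes of G2 and mitosis 0 rose and 7 fell at 37 °C, and 0 rose and 9 fell at 39 °C, by edgeR. An unadjusted p under 0.05 gave 0 higher and 9 lower in both comparisons, and DESeq2 0 higher and 7 lower at 37 °C and 0 higher and 3 lower at 39 °C. Top2a, topoisomerase II alpha, averaged 5.57 ± 0.13 CPM in 39 °C libraries and 5.04 ± 0.343 CPM in 37 °C libraries, against 12.3 ± 1.69 CPM in naive libraries (SD, n = 3). Cdk1, the mitotic kinase, had 0.611 ± 0.0902 and 0.578 ± 0.0991 CPM at 39 °C and 37 °C, against 1.92 ± 0.556 CPM in naive cells, and Ccna2, cyclin A2, had 1.02 ± 0.336 and 0.696 ± 0.175 CPM, against 1.90 ± 0.14 CPM. The fall of Ccna2 at 39 °C was not called by DESeq2 (adjusted p = 0.0824), nor by edgeR without 39 °C library 2 (0.0753) or naive library 3 (0.0588). Ccna2 shares 510 exon bases with Exosc9 on the other strand. The count at 39 °C was 5 in the 6 libraries alone, without 39 °C library 2 and without naive library 1. The B cell and erythroid markers given above were lower in the same activated libraries, and their part in these falls was not tested.

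**Figure D5:**
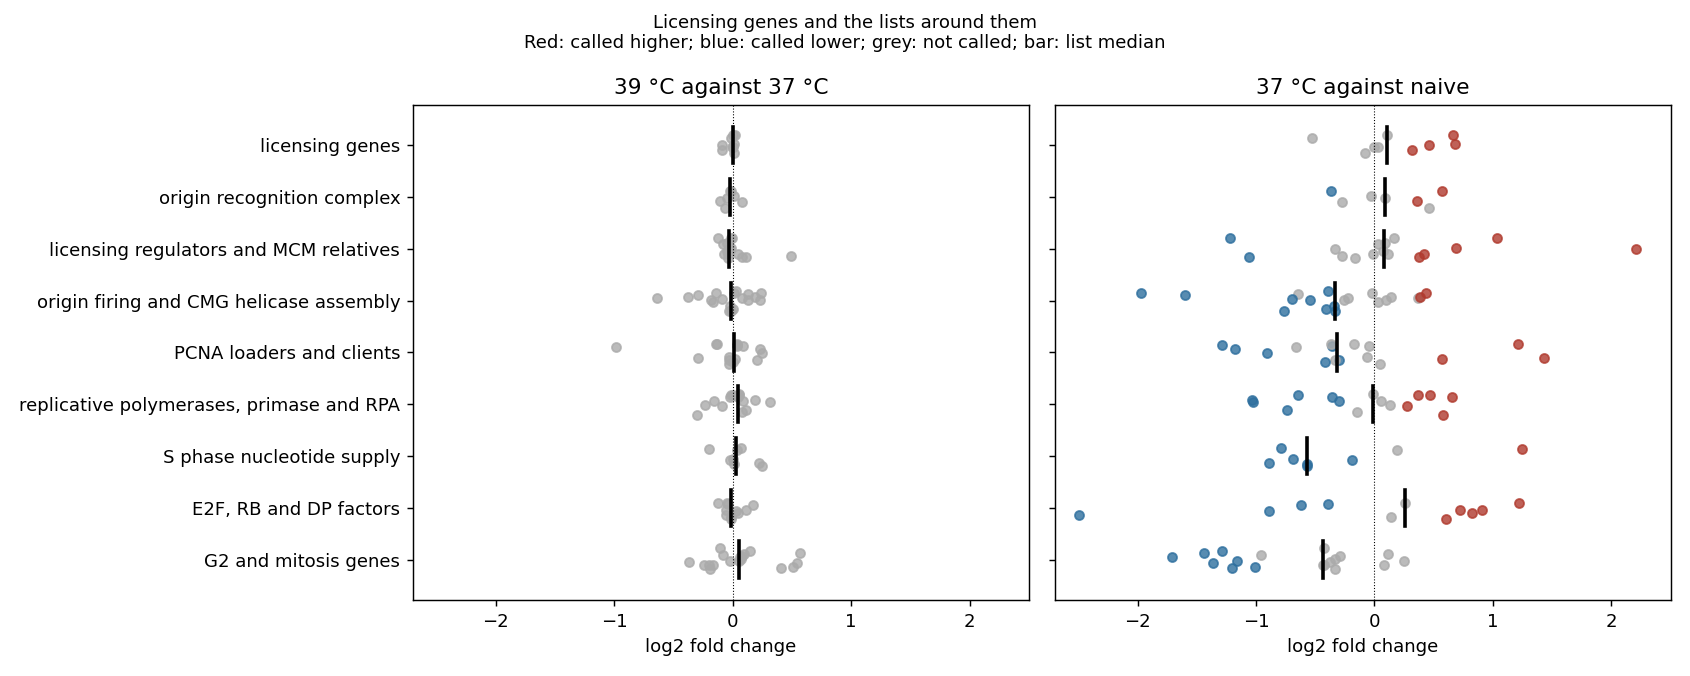
Log2 fold changes (x axis) of the tested genes of 9 lists (y axis), the licensing genes first, for 39 °C against 37 °C (left) and 37 °C against naive (right). Red points were called higher, blue lower and grey not called by edgeR, the bar is the median of a list and the vertical scatter within a list has no meaning; no gene was called on the left, and the G2 and mitosis list holds 7 lower and 0 higher calls on the right.

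For each tested licensing gene the gene with the most similar profile was found by Pearson correlation of log2 CPM over the 9 libraries, among about 9037 genes. All 9 points share the division into naive and activated libraries, so a high r mostly says that 2 genes moved alike with activation. The nearest gene to Mcm5 was Ssrp1, a subunit of the histone chaperone FACT (r = 0.998), with log2 fold changes of 0.67 at 39 °C and 0.65 at 37 °C against naive. The nearest to Pcna was Bccip (r = 0.997), the nearest to Mcm2 was Ppm1g, a protein phosphatase gene (r = 0.991), and the nearest to Mcm6 was Mex3d (r = 0.976). For genes that did not rise the best r was lower, at 0.947 for Mcm4 with Stard7, 0.937 for Cdc6 with Tyro3, 0.928 for Mcm3 with Taf6l, 0.900 for Cdt1 with Fam50a and 0.860 for Mcm7 with Coq8b. Each r is the highest of about 9037 on 9 libraries, and how high unrelated genes would reach was not tested. That of Cdc6 rests on 8 to 23 counts a library.

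Shared exons were found for Mcm7 alone among the licensing genes. Mcm7 overlaps exons of Cops6 by 64 bases and of Ap4m1 by 321 bases on the other strand, and Cops6 rose (0.48 ± 0.10 at 39 °C and 0.40 ± 0.10 at 37 °C against naive, edgeR adjusted p = 0.00185 and 0.00562) while Ap4m1 was not called. Mcm7 hosts the microRNA genes Mir25, Mir93 and Mir106b, which had 0, 0 and 4 counts over the 9 libraries; the libraries were not made for small RNA. The processed pseudogene Pcna-ps2, matched to Pcna by its name, had 146 counts over all libraries, against 30785 counts of Pcna itself. Mcm4 shares no exon with a neighbour. It and Prkdc, the gene of the DNA repair kinase DNA-PKcs, start 466 bases apart in opposite directions, and Prkdc fell (-0.53 ± 0.14 at 39 °C and -0.54 ± 0.14 at 37 °C against naive, adjusted p = 0.00601 and 0.00547) where Mcm4 did not pass the test.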

How the data were processed

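The files held raw counts of reads per gene, 1 table per library, as the authors deposited them and not normalised. The submitters' processing notes name HISAT2, HTSeq, FastQC and DESeq2 and, as build, GRCm38, with neither versions nor roles. Which aligner and counter made these tables, with which annotation and strand setting, is not given in the sources used here. Per the labels' protocols, TRIzol was used for total RNA and a TruSeq RNA kit for the libraries. Of 55573 identifiers 55480 matched GENCODE M21, which supplied symbols, exons and GRCm38 coordinates.

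Groups came from the labels. The filter was filterByExpr with a count of at least 10 and a total of at least 15, the scaling TMM and the test the 2-sided quasi-likelihood F test of edgeR 4.0.16, run in R 4.3.3 in 1 fit of all 9 libraries, with Benjamini-Hochberg adjustment over 13328 genes and a threshold of 0.05. The licensing genes and the lists were chosen with earlier results of these data known, and no test of a list was made. The genes named are the 10 licensing genes and, of each list, the 3 called with the smallest adjusted p at 37 °C against naive. Also named are the gene nearest to each licensing gene by correlation, among genes that average 5 CPM or more, and genes that share reads. Prkdc, which starts close to Mcm4, and some markers without a count were named outside this rule. Others are said to be chosen later. On simulated counts for 37 °C against naive cells, with 13038 genes tested, 47 of 49 genes with a log2 change of 2 were recovered. The recovery was 41 of 49 at 1, 25 of 50 at 0.58 and 6 of 48 at 0.32, with 5 unchanged genes called. Only a small share of genes was changed there, while 62.7% of tested genes were called in the data. The adjusted threshold was therefore stricter in the simulation, and its recovery does not measure what was missed here. Alternatives were RLE or library size scaling, every gene with a count, DESeq2 1.42.0, a replicate block, the 6 libraries of a comparison alone and leaving out each library; the length of the principal transcript was added after seeing the data.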

Additional observations from a re-analysis of the deposited data

How the results depend on the processing

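Among the licensing genes the calls were 0 for 39 °C against 37 °C, 4 for 37 °C against naive and 4 for 39 °C against naive cells under every alternative run, with 1 exception, the loss of Mcm6 without 39 °C library 2, given above; no direction of a called gene turned. The log2 fold change of Pcna at 37 °C against naive lay between 0.62 and 0.79 over the alternatives, that of Mcm5 between 0.61 and 0.72, of Mcm2 between 0.42 and 0.53 and of Mcm6 between 0.27 and 0.35. The count of all genes called at 39 °C against 37 °C was less stable. It was 101, and became 176 with every gene with a count, 401 in the 6 libraries alone and 37 to 291 when 1 library was left out, where it was 291 without naive library 1, 152 without naive library 2 and 37 without 39 °C library 2. DESeq2 gave 151. The cause was not tested. Replicate numbers showed no pairing of the samples: deviations correlated at -0.209 to 0.388 for 9 pairs with the same number and at -0.408 to 0.424 for 18 other pairs. With 3 libraries a group this check could miss a pairing. With the replicate block 97, 8519 and 8065 genes were called for 39 °C against 37 °C, 37 °C against naive and 39 °C against naive, and 0, 4 and 4 of the licensing genes. Levels per kilobase moved with the length used for all but Mcm4, as given above. Depth limited Cdc6 and Mcm10, and nothing was detectable for them beyond their intervals.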
